A study of Mus musculus with 3 samples.

Results

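Interferon-stimulated genes were followed as a module of 45 listed mouse symbols in single-cell RNA sequencing libraries of regenerating tibialis anterior muscle. The members were taken by symbol from the feature list of the deposited count tables. The symbols Mx1 and Mx2 were not found there and were not analysed here. The other 43 all carried at least 50 UMIs (unique molecular identifiers, which count captured transcripts) over the 3 libraries, against 25268 genes with any UMI in the cells kept. Each library was the only library of its group, and all C57/BL6J muscles were collected 4 days after injury by BaCl2 injection. Young PBS mice (3 to 4 months of age) and old PBS mice (24 to 26 months of age) received the vehicle. Old rMETRNL mice were of the old age range and received recombinant meteorin-like protein by intramuscular injection after the injury. The study's methods state that triplicate samples of each group were pooled before capture, so that the spread between mice cannot be recovered. With 1 library per group no test between groups was possible. Every 95% interval below is exact (Poisson for a level, conditional on the summed count for a ratio, Clopper-Pearson for a share of cells) and covers counting error only. Differences beyond it describe these libraries.

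Type I interferons bind the receptor pair Ifnar1 and Ifnar2, whose kinases Jak1 and Tyk2 activate transcription factors. Stat2 joins Irf9 in a complex that binds the interferon-stimulated response element (ISRE) in target promoters, whereas interferon gamma acts mainly through the gamma-activated site (GAS) and is a strong inducer of the guanylate-binding proteins and immunity-related GTPases. The targets are antiviral and inflammatory effectors, and in injured muscle they can be induced in infiltrating macrophages as well as in stromal and endothelial cells.

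The promoters of the members carry these elements more often than promoters at large. Of the 43 measured members, 34 were present in the RefSeq promoter table (GRCm38.p6, 250 bases before to 50 after each transcription start). The letters GAAA, any 2 bases and GAAA (on the other strand TTTC, any 2 bases and TTTC), taken as an ISRE match, were found in 22 of these 34 (64.7%), compared with 3.99% of all 27025 genes in the table. The GAS letters TTCNNNGAA, which read the same on both strands, were found in 7 of 34 members (20.6%) and in 9.55% of all genes. Matches of both kinds overlapped in 2 member promoters. By role, an ISRE match was present in 4 of 5 IFIT family genes, 5 of 6 GTPase genes, 3 of 5 OAS genes, 3 of 5 other antiviral effectors, and 4 of 5 nucleic acid sensors and p200 genes. It was present in 1 of 2 genes of the ISG15 system, 1 of 3 transcription factors and 1 of 3 of the others. A match is a description of letters in this window and is no evidence of binding. The bases upstream of the start of 7 members are given 5′ to 3′ because these genes recur in the results as examples of the IFIT, ISG15, OAS, effector and GTPase groups. Capitals mark ISRE matches, Oasl2 is shown as a member without a match, and for Gbp3 the 18 bases nearest the RefSeq start were left out because another annotation places them inside the gene.
Ifit3, chr19:34583369-34583528, plus strand: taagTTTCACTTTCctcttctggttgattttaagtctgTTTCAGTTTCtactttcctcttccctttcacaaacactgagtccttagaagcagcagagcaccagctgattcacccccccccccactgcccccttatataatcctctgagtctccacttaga
Isg15, chr4:156200819-156200978, minus strand: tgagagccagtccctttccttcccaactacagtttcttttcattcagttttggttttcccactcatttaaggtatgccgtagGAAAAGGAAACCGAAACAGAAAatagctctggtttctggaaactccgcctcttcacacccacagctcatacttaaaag
Oas1a, chr5:120907526-120907685, minus strand: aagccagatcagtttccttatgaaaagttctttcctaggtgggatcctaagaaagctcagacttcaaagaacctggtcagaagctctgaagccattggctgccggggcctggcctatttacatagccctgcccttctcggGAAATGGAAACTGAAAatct
Rsad2, chr12:26456453-26456612, minus strand: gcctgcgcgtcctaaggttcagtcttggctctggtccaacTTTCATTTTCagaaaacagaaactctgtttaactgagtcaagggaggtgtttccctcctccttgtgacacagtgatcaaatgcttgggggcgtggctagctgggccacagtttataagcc
Oasl2, chr5:114896774-114896933, plus strand: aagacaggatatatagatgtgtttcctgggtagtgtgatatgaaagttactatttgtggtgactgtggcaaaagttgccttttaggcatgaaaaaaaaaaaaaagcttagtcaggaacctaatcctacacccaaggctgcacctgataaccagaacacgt
Gbp3, chr3:142559884-142560025, plus strand: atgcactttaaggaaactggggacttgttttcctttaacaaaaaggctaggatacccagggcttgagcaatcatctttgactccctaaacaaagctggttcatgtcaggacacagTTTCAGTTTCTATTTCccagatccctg
Igtp, chr11:58199396-58199555, plus strand: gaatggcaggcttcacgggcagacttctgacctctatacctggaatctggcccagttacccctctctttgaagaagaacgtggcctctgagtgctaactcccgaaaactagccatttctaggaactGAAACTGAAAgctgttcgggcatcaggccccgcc

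In Ifit3 the ISRE matches began 156 and 122 bases before the start. Those of Isg15 formed an overlapping run beginning 78, 72 and 66 bases before the start, and the pair in Oas1a began 20 and 14 bases before it. The single match of Rsad2 began 120 bases before the start. Gbp3 had an overlapping pair beginning 45 and 39 bases before the start and Igtp a single match 34 bases before it. The stretches of Igtp and Oas1a also hold a GAS match each, beginning 45 and 98 bases before the start and not marked by capitals.

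Depth and composition were as follows. The libraries held 12168 barcodes (218059089 UMIs) for young PBS, 12568 (179295668) for old PBS and 14012 (228966697) for old rMETRNL, of which 10285, 9941 and 11363 were kept as cells. Between 58 and 80 barcodes were shared by any pair of libraries and between 24 and 33 among the cells kept. Cells were grouped without the interferon genes and named from marker genes. Macrophage/monocyte-like cells numbered 6313 (young PBS), 6052 and 6848, with median depths between 14093 and 14642.5 UMIs per cell, and fibro/adipogenic progenitor-like (FAP-like) cells numbered 1650, 1377 and 1695. Levels are given as CPM, counts per 1000000 UMIs of all cells that a library holds of the class. Where labels are omitted, values run from young PBS through old PBS to old rMETRNL. Less RNA per cell and fewer responding cells give the same class sum. The scores per cell given further on show the spread over cells, but a share past a fixed cut cannot separate these readings.

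**Figure D1:**
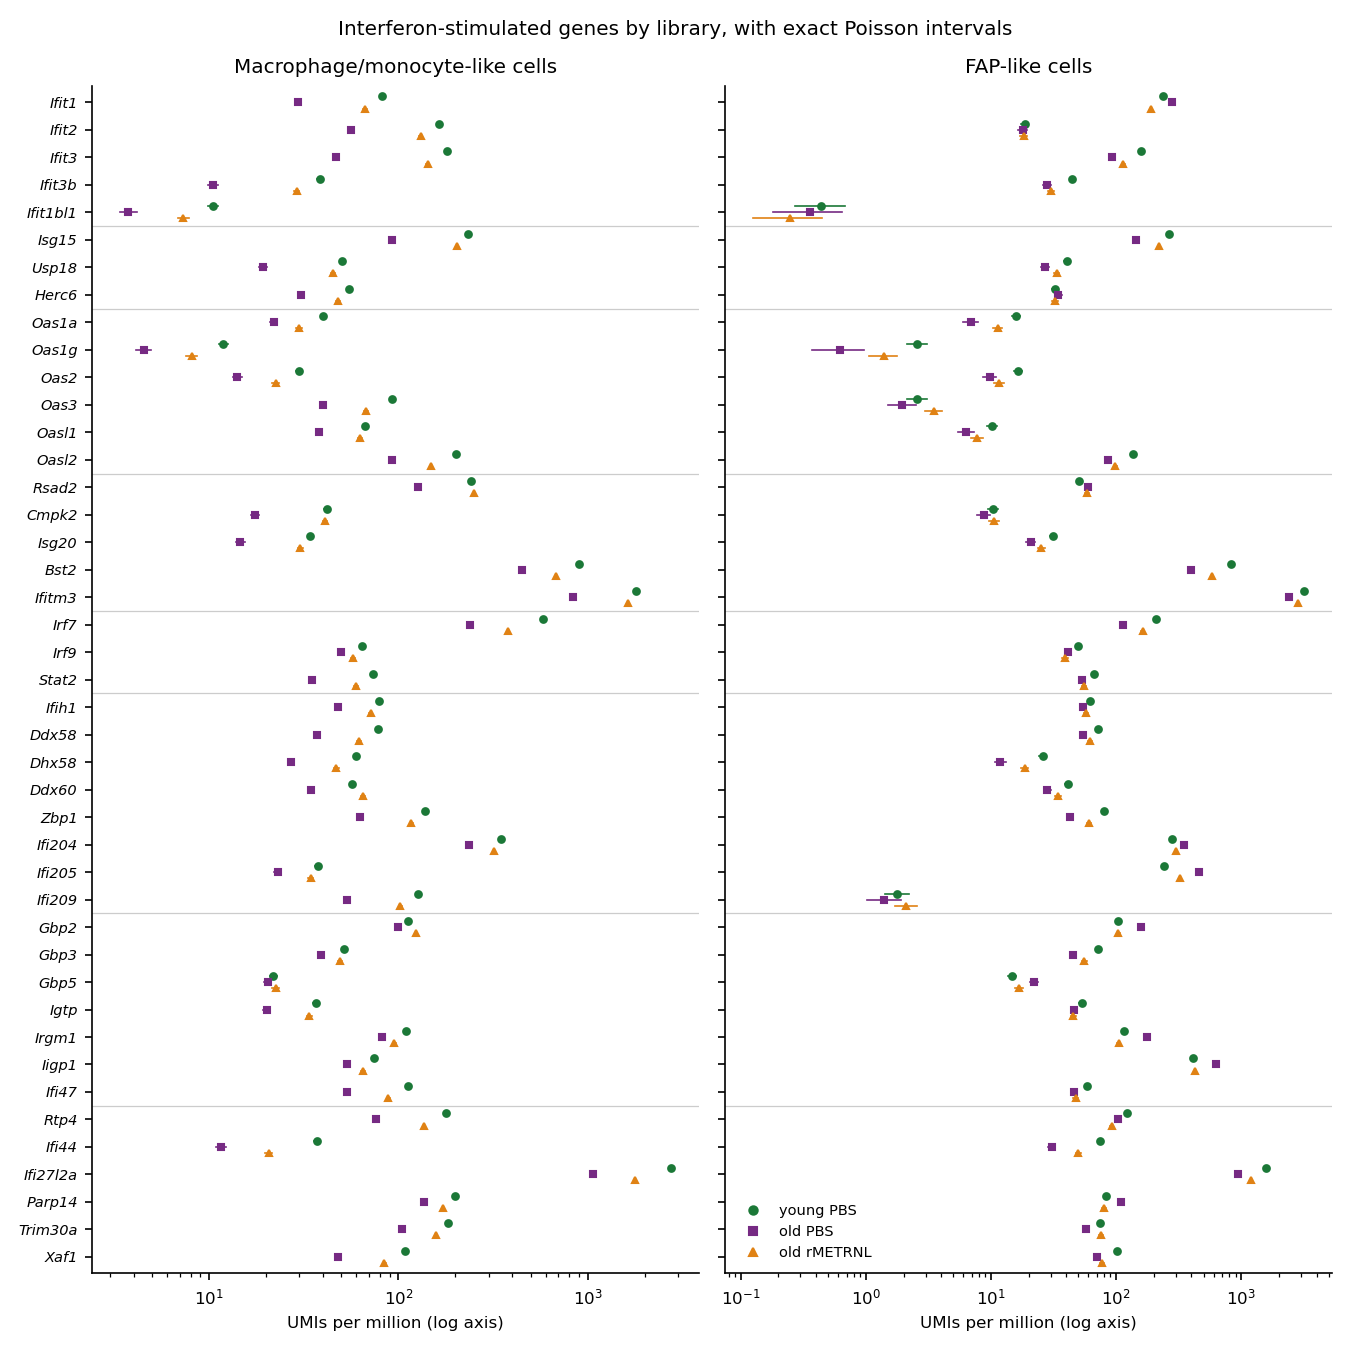
Level of each of the 43 members in CPM on a log axis in macrophage/monocyte-like (left) and FAP-like cells (right), with horizontal bars for exact 95% Poisson intervals and grey lines between role groups. In the macrophage panel old PBS (squares) lies lowest for all 43 genes, whereas in the FAP panel it lies highest for 10 of 42, among them Iigp1, Irgm1, Gbp2 and Ifi205 (Ifit1bl1, with under 50 UMIs, is drawn but not counted).

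In macrophage/monocyte-like cells, the interferon-stimulated genes were lower in old PBS than in young PBS and higher again in old rMETRNL. All 43 members had their lowest level in old PBS, with the interval of every age ratio (old PBS over young PBS) below 1 and that of every treatment ratio (old rMETRNL over old PBS) above 1. In 39 members the order was young PBS, old rMETRNL, old PBS. These counts of order and of intervals are given without the same counts over all genes. With class sums this large the counting intervals are narrow, so that small differences also lie outside them. The members together took 9915 CPM in young PBS muscle, against 4603 in old PBS and 7783 with rMETRNL. At a 1.5-fold threshold, 35 of 43 were lower and 0 higher in old PBS than in young PBS, while 6.46% of 14387 genes tested were lower and 6.67% higher. The median log2 ratio was -1.09 over the members and 0.00 over all genes. For the treatment ratio 32 of 43 were higher and 0 lower, against 5.69% of all genes higher and 4.05% lower, with medians of 0.75 and 0.04. The treatment ratio and the age ratio share the old PBS library, so that they are not independent of each other.

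The IFIT family, tetratricopeptide proteins that bind viral RNA, had the largest ratios of any role group in macrophage/monocyte-like cells (median log2 -1.53 for age and 1.22 for treatment, 5 of 5 past 1.5-fold both times). Ifit3 was measured at 181 CPM in young PBS muscle, against 46.7 in old PBS and 143 with rMETRNL. Its age ratio was 0.26 (0.25 to 0.27) and its treatment ratio 3.06 (2.96 to 3.16), both the farthest from 1 among the 43 members. Its neighbour and near copy Ifit3b stood at 38.5, 10.5 and 29.0 CPM, giving ratios of 0.273 (0.255 to 0.292) and 2.76 (2.57 to 2.96). Reads from Ifit3 and Ifit3b may have been divided between them by the alignment, and the same holds for Ifit1 and Ifit1bl1. Ifit1 was at 81.5, 29.7 and 66.7 CPM, an age ratio of 0.36 (0.35 to 0.38) and treatment ratio of 2.25 (2.15 to 2.35). The listed genes of this family lie together on chromosome 19 and were all highest in young PBS.

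The ISG15 system followed with median log2 ratios of -1.32 and 1.14. Isg15, a ubiquitin-like protein that is conjugated to targets after interferon exposure, was at 232 CPM in young PBS muscle, against 93.0 in old PBS and 204 with rMETRNL, so that its age ratio was 0.40 (0.39 to 0.41) and its treatment ratio 2.20 (2.14 to 2.25). Usp18, the protease that removes Isg15 and restrains receptor signalling, was at 50.6, 19.2 and 45.1 CPM, giving ratios of 0.38 (0.36 to 0.40) and 2.35 (2.22 to 2.47). For both genes the old rMETRNL level lay just under the young PBS level, at ratios of 0.88 and 0.89.

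The OAS family makes or resembles the enzymes that make oligoadenylates, which activate RNase L. All 6 members were lower past 1.5-fold in old PBS (median log2 -1.11), and 5 of 6 were past the threshold for treatment (0.70). Oasl2 was at 203 CPM in young PBS muscle, against 92.8 in old PBS and 149 with rMETRNL, giving ratios of 0.46 (0.45 to 0.47) and 1.6 (1.56 to 1.65). Oas1a, whose paralog Oas1g can share its reads, was at 40.2, 21.9 and 29.8 CPM. It had a treatment ratio of 1.36 (1.29 to 1.43) and was the OAS gene that did not reach 1.5-fold. Both remained below young PBS in old rMETRNL, at ratios near 0.74.

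Among the other antiviral effectors all 5 measured genes passed 1.5-fold in both contrasts (medians -1.11 and 0.97). Rsad2 (viperin), which makes a chain-terminating nucleotide, was at 241 CPM in young PBS muscle, against 127 in old PBS and 250 with rMETRNL. Its age ratio was 0.53 (0.52 to 0.54), its treatment ratio 1.96 (1.92 to 2) and its ratio of old rMETRNL over young PBS 1.04 (1.02 to 1.05). Cmpk2, the kinase encoded beside it, was at 41.8, 17.4 and 40.9 CPM and had a treatment ratio of 2.35 (2.22 to 2.49). These neighbours on chromosome 12 thus reached about the same level in old rMETRNL as in young PBS. The membrane proteins Bst2 (tetherin, which holds budding virions at the cell surface) and Ifitm3 (which blocks viral fusion) had ratios of 0.50 (0.49 to 0.51) and 0.46 (0.46 to 0.47) for age. Bst2 was at 901, 450 and 681 CPM in young PBS, old PBS and old rMETRNL, and Ifitm3 at 1803, 838 and 1631 CPM. Their treatment ratios were 1.51 (1.49 to 1.53) and 1.95 (1.93 to 1.96).

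The transcription factors of the pathway differed among themselves. Irf7, which is itself induced and amplifies type I interferon responses, was at 582 CPM in young PBS muscle, against 240 in old PBS and 377 with rMETRNL. Its age ratio was 0.41 (0.41 to 0.42) and its treatment ratio 1.57 (1.55 to 1.6), and with an old rMETRNL level of 0.65 of that in young PBS it stayed further below it than most members. Stat2 was at 73.3, 35.0 and 59.5 CPM, giving ratios of 0.48 (0.46 to 0.50) and 1.70 (1.63 to 1.77). Irf9, its DNA-binding partner, was at 63.9, 49.9 and 57.2 CPM and did not reach 1.5-fold in either contrast, at 0.78 (0.75 to 0.81) and 1.15 (1.11 to 1.19).

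The sensors of nucleic acids and the p200 genes had median log2 ratios of -0.89 for age (7 of 8 past 1.5-fold) and 0.77 for treatment (5 of 8). Ddx58, which encodes the RNA sensor RIG-I, was at 78.0 CPM in young PBS muscle, against 37.3 in old PBS and 62.1 with rMETRNL, giving ratios of 0.48 (0.46 to 0.50) and 1.67 (1.6 to 1.73). Ifih1, which encodes the sensor MDA5, was at 79.3, 48.2 and 71.3 CPM, giving ratios of 0.61 (0.59 to 0.63) and 1.48 (1.43 to 1.53). Zbp1, a sensor of left-handed nucleic acids that can start necroptosis, was at 139, 62.9 and 117 CPM, giving ratios of 0.45 (0.44 to 0.47) and 1.86 (1.81 to 1.92). The p200 gene Ifi204 was at 350, 235 and 320 CPM, and its ratios of 0.67 (0.66 to 0.68) and 1.36 (1.34 to 1.38) were nearer to 1 than those of the RNA sensors.

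The interferon-inducible GTPases, which attack the vacuoles of intracellular pathogens and are strong targets of interferon gamma, had the smallest ratios in macrophage/monocyte-like cells. Their median log2 ratio was -0.42 for age and 0.31 for treatment, and 2 of 7 (Igtp and Ifi47) passed 1.5-fold in each contrast. Gbp2 was at 113 CPM in young PBS muscle, against 99.9 in old PBS and 124 with rMETRNL, giving ratios of 0.89 (0.86 to 0.91) and 1.24 (1.21 to 1.27). Irgm1 was at 110, 82.0 and 95.3 CPM (0.75, 0.72 to 0.77, and 1.16, 1.13 to 1.20), and Iigp1 at 74.7, 53.4 and 64.7 CPM (0.71, 0.69 to 0.74, and 1.21, 1.17 to 1.26). Igtp was at 36.6, 20.1 and 33.8 CPM and had ratios of 0.55 (0.52 to 0.58) and 1.68 (1.59 to 1.77), in the range of the antiviral genes. Members of the Gbp family are similar in sequence, so that their counts may share reads.

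Of the remaining members, Ifi27l2a, a small mitochondrial and membrane-associated protein, was at 2763 CPM in young PBS muscle, against 1062 in old PBS and 1773 with rMETRNL. Its ratios were 0.38 (0.38 to 0.39) and 1.67 (1.66 to 1.68). Ifi44 was at 37.0, 11.6 and 20.6 CPM. Its age ratio of 0.31 (0.29 to 0.34) was the lowest outside the IFIT family, and its old rMETRNL level was 0.56 (0.53 to 0.59) of that in young PBS, the lowest such ratio among the members. Rtp4, a receptor-transporting protein, was at 179, 76.5 and 136 CPM (0.43, 0.42 to 0.44, and 1.78, 1.73 to 1.83), and the pro-apoptotic factor Xaf1 at 109, 47.8 and 84.3 CPM (0.44, 0.425 to 0.455, and 1.76, 1.70 to 1.83). In these 4 genes the young PBS library was highest and old rMETRNL lay between both PBS libraries.

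**Figure D2:**
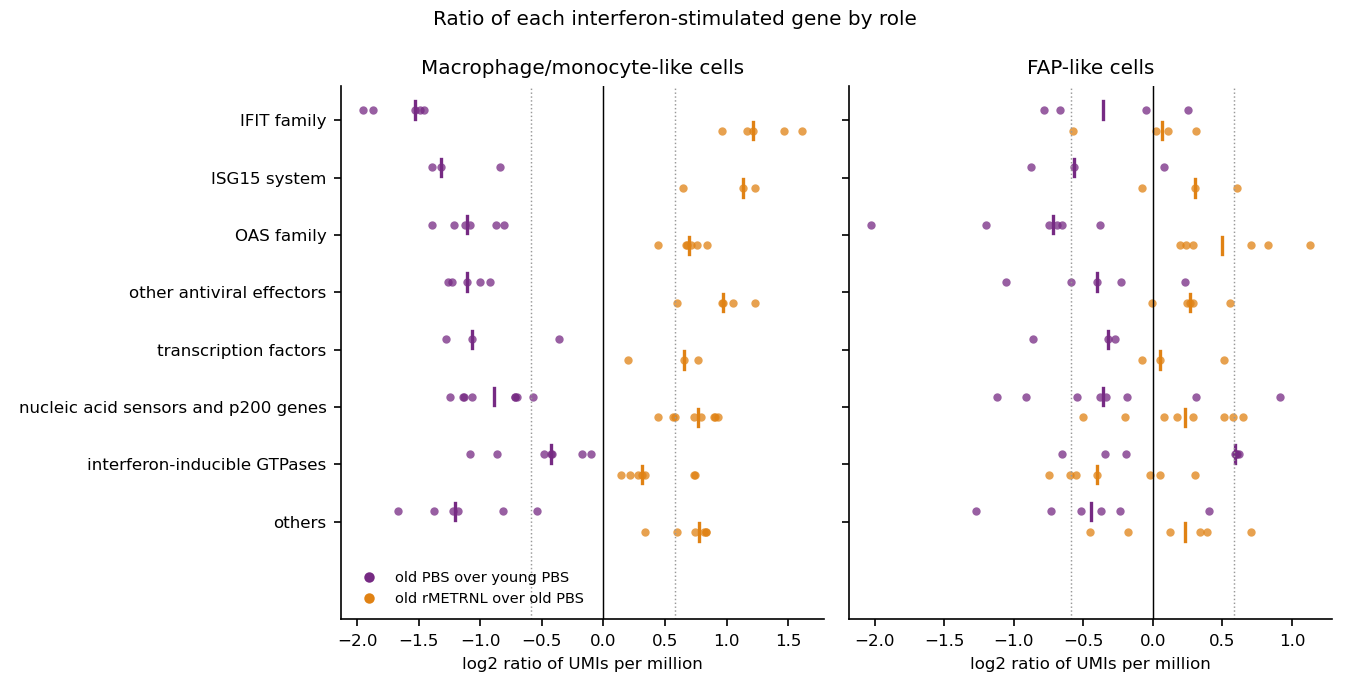
Log2 ratio of CPM for each member, by role group, in macrophage/monocyte-like (left) and FAP-like cells (right), for old PBS over young PBS and for old rMETRNL over old PBS. Points are genes, short bars group medians and dotted lines 1.5-fold. In macrophages the IFIT family lies farthest from 0 (medians -1.53 and 1.22) and the GTPases nearest (-0.42 and 0.31), and in FAP-like cells the GTPase medians are 0.59 and -0.40.

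Compared directly with young PBS, macrophage/monocyte-like cells of old rMETRNL had a median log2 ratio of -0.25 over the 43 members and 0.04 over all genes. At 1.5-fold 3 members were lower and 0 higher, against 2.18% of all genes lower and 4.56% higher. The 3 were Irf7, Ifi44 and Ifi27l2a, named here because they were so few. The 4 members above the young PBS level were Ddx60 (57.1 CPM in young PBS muscle, against 34.7 in old PBS and 64.8 with rMETRNL), Gbp2, Rsad2 and Gbp5. The interval for Gbp5 included 1 (0.97 to 1.09).

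Markers of other classes and signs of tissue dissociation were measured in the same cells. In macrophage/monocyte-like cells the summed FAP markers took 165 CPM in young PBS muscle, against 182 in old PBS and 179 with rMETRNL (13 of 13 detected), T/NK markers 12, 8 and 12 CPM, and plasmacytoid dendritic markers 11, 14 and 13 CPM. Erythroid markers were at 271, 29 and 106 CPM, myocyte markers at 92, 179 and 104 CPM and B cell markers at 157, 93 and 121 CPM. Mast cell markers were at 0.56, 3.19 and 11.3 CPM. These lists differed between the groups. Library quality did too, since barcodes with fewer than 500 genes numbered 308, 990 and 746, kept cells with fewer than 2000 UMIs 240, 738 and 597, and the median mitochondrial share of macrophage/monocyte-like cells was 2.92%, 3.42% and 2.95%. The part of these lists and values in the result was not tested. Of 16 dissociation stress genes, 4 were lower and 0 higher past 1.5-fold for age and 3 higher and 0 lower for treatment, with medians of -0.15 and 0.15, beside 6.46% of all genes lower for age and 5.69% higher for treatment. Within that list the heat shock gene Hspa1a was at 1394, 670 and 1391 CPM, giving ratios of 0.48 (0.48 to 0.49) and 2.08 (2.06 to 2.09), so that old PBS was its lowest library too. Whether handling of the tissue had a part in the interferon result was not tested.

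The upstream parts of the pathway were taken from lists of ligands, receptors, signalling and restraining genes. Of 21 interferon ligand genes only Ifnb1 had 50 UMIs in macrophage/monocyte-like cells, at 0.52 CPM in young PBS muscle, against 0.63 in old PBS and 0.55 with rMETRNL, and both its ratios had intervals that included 1 (0.82 to 1.77 and 0.61 to 1.27). The receptor genes Ifnar1 (73.5, 78.2 and 72.9 CPM) and Ifnar2 (228, 200 and 203 CPM) stayed within 1.5-fold, as did all 5 of the receptor genes tested. Of 17 signalling genes 3 were lower for age and 1 was higher for treatment, with medians of -0.18 and 0.02, beside 6.46% of all genes lower for age and 5.69% higher for treatment. Of 7 listed genes that restrain the pathway, a list without the member Usp18, none passed 1.5-fold in either contrast, which is a count of sizes and not a test.

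Interferon-inducible genes outside the 45 were counted in the same cells, where 6.46% of all genes were lower for age and 5.69% higher for treatment. Of 36 further inducible genes tested in macrophage/monocyte-like cells, 25 were lower and 0 higher in old PBS than in young PBS (median log2 -0.76), and 15 were higher and 0 lower in old rMETRNL than in old PBS (0.54). Ms4a4c was at 376, 134 and 267 CPM, and the p200 gene Ifi213 at 54.9, 16.9 and 38.7 CPM with a treatment ratio of 2.29 (2.16 to 2.42). Cxcl10, a chemokine for T cells, was at 363, 148 and 265 CPM. Its ratios were 0.41 (0.40 to 0.42) and 1.79 (1.75 to 1.82).

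The per-cell score was lower in old PBS, both in the median cell and in the share of cells past a fixed cut. A downward shift of every cell also lowers that share, so that these are not separate findings. Each cell was thinned to 2000 UMIs and the UMIs of a core list (24 of the members that are mainly antiviral) were counted, with 109, 209 and 180 shallower macrophage/monocyte-like cells left out of the respective libraries. The median cell had 4, 1 and 3 core UMIs. Cells with 0 core UMIs made up 8.99%, 29.7% and 15.7%. Cells with at least 10 core UMIs were 20.5% (19.5 to 21.5) of 6204 young PBS cells, 6.20% (5.59 to 6.84) of 5843 old PBS cells and 15.3% (14.4 to 16.2) of 6668 cells with rMETRNL. As a ratio of shares this was 0.30 (0.27 to 0.34) for age and 2.47 (2.19 to 2.79) for treatment. Without thinning the shares were 85.2%, 50.4% and 73.1%, since a deep cell reaches 10 UMIs more easily. The score is a continuous range and 885, 288 and 657 cells lay between 8 and 11 core UMIs.

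Ifit3 was detected in 23.4% (22.3 to 24.5), 6.86% (6.23 to 7.54) and 18.3% (17.4 to 19.3) of thinned macrophage/monocyte-like cells. In myocyte-like cells, the class with the lowest levels, Ifit3 was detected in 3.0%, 0.50% and 1.23% of cells at the same thinned depth. Each of the 23 other core genes was detected in a larger share of macrophage/monocyte-like cells with Ifit3 than of those without it, in each library. In macrophage/monocyte-like cells with Ifit3, Isg15 was detected in 52.7%, 39.9% and 54.2% of cells in the order of libraries above, compared with 23.6%, 12.7% and 20.2% of cells without it. Barcodes with fewer than 500 genes, which can hold free RNA, held the core list at 974.5, 672.1 and 1118.4 CPM in young PBS, old PBS and old rMETRNL.

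**Figure D3:**
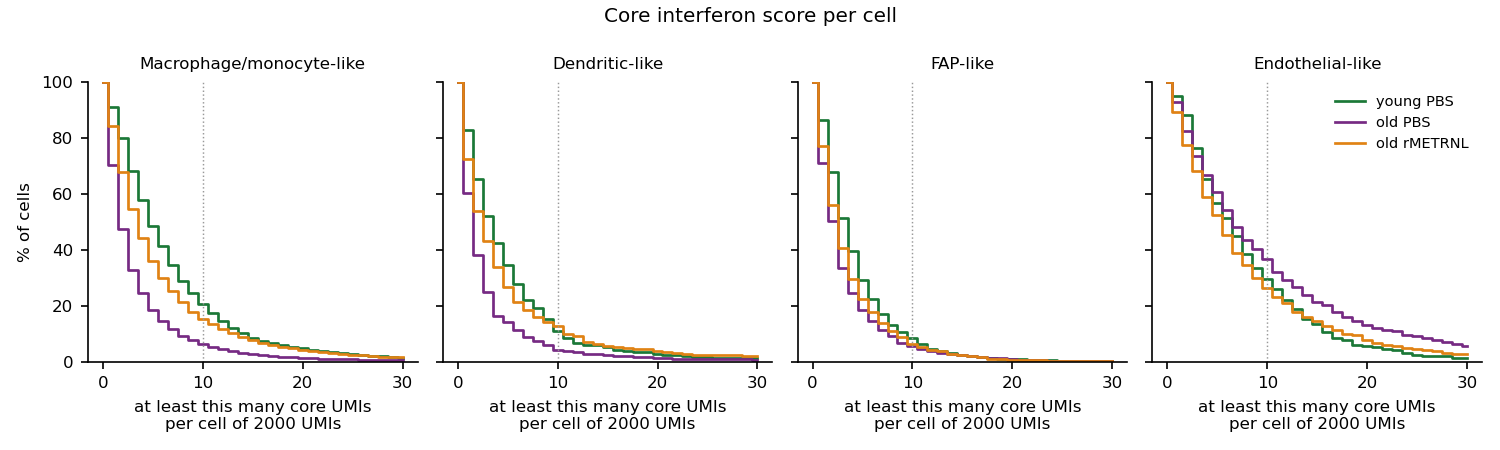
Share of cells (y axis, %) with at least the number of core interferon UMIs on the x axis, after thinning each cell to 2000 UMIs, in 4 classes. Lines are libraries and the dotted line marks 10 UMIs. In macrophage/monocyte-like cells the curves stand at 20.5% (young PBS), 6.20% (old PBS) and 15.3% (old rMETRNL) at that line, and in endothelial-like cells at 29.4%, 36.6% and 26.2%, with 39, 209 and 188 shallower endothelial-like cells left out (79.3%, 57.9% and 62.7% without thinning).

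The same directions were found in each macrophage sub-cluster examined. Macrophage/monocyte-like cells were clustered again without the interferon genes, and 13 sub-clusters with at least 40 cells in every library were compared. In 13 of 13 the median member log2 ratio was below 0 for age (-1.10 to -0.57) and above 0 for treatment (0.19 to 1.02). Medians over all genes ran from -0.04 to 0.10 for age and from -0.07 to 0.04 for treatment. The lowest treatment median was that of sub-cluster 11, with 40 old PBS cells. There 11 of 43 members were higher and 3 lower for treatment past 1.5-fold, against 14.5% and 11.0% of genes. The sub-clusters come from the same libraries and are not replicates. The core list was lower in old PBS than in young PBS in all 13 (ratios from 0.42 to 0.60) and higher in old rMETRNL than in old PBS in all 13 (1.3 to 2.41), with intervals that excluded 1. Sub-cluster 12, led by the monocyte genes Vcan, Hp and Ly6c2, held the core list at 5258 CPM in young PBS muscle, against 2832 in old PBS and 5770 with rMETRNL, from 81, 44 and 181 cells. Sub-cluster 9, led by Ctsl, Lpl and Spp1 of lipid-handling macrophages, held it at 1453, 606 and 1462 CPM. Sub-cluster 10 held it at 3069, 1576 and 2719 CPM. Its leading genes include the resident-type genes Cd163 and Cbr2, but also Ednrb, F13a1, Ccl7, Ccl2, Egr1 and Hbegf.

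Sub-cluster 3, led by Hes1, Txnip and Cxcl10, took 16.4% of macrophage/monocyte-like cells of young PBS muscle, but 6.01% in old PBS and 8.62% with rMETRNL and had core levels of 4677, 2082 and 3741 CPM. Its leading genes include the interferon-inducible Cxcl10, which was not used for clustering. They also include Ly6a, Slfn1, Calhm6 and Ciita, which were not among the genes left out. Whether the interferon state of the cells shaped this sub-cluster was not tested. Since the makeup of the class differed between libraries, member levels were also averaged over the 13 sub-clusters with equal weights. The median log2 ratio was then -0.88 for age and 0.68 for treatment. Sub-cluster 0, led by the heat shock genes Hspa1b and Hspa1a, had core ratios of 0.50 and 1.78.

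**Figure D4:**
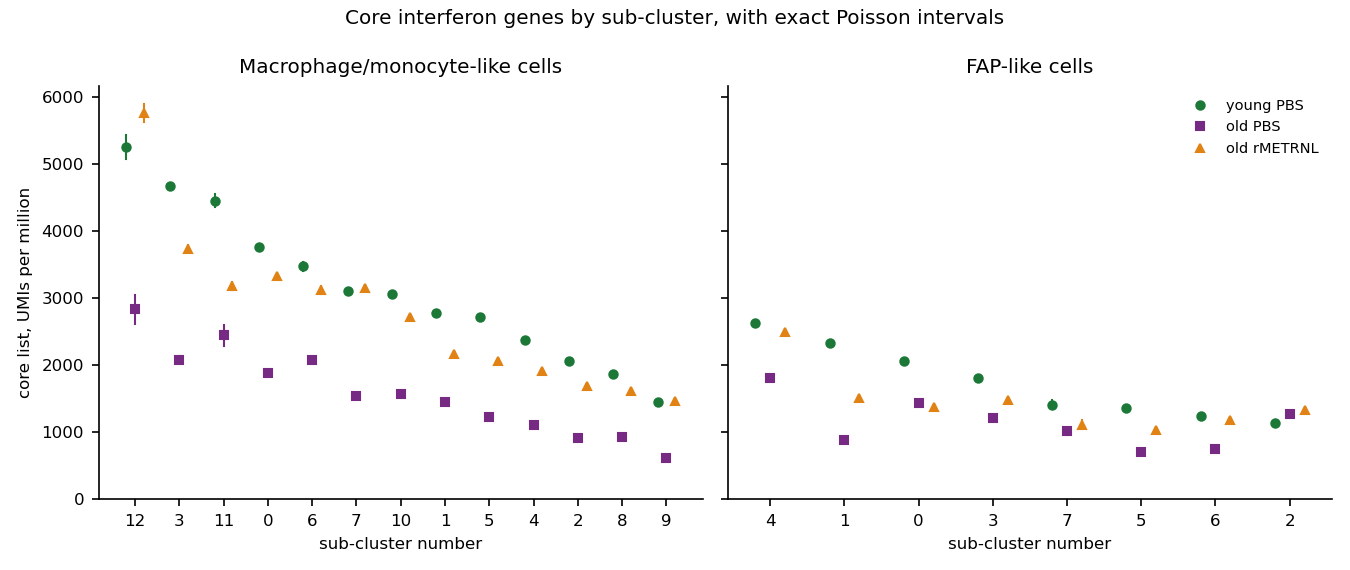
Summed level of the core list (CPM) in each sub-cluster of macrophage/monocyte-like (left) and FAP-like cells (right), ordered by level in young PBS, with exact 95% Poisson intervals. Old PBS (squares) is lowest in 13 of 13 macrophage sub-clusters, and in FAP-like cells it is below young PBS in 7 of 8, the exception being sub-cluster 2 at 1142 CPM in young PBS and 1272 in old PBS.

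FAP-like cells, the mesenchymal progenitors of muscle, showed a divided picture. Most antiviral members were lower in old PBS than in young PBS, as in macrophages but by less, while 4 of 7 GTPases and the p200 gene Ifi205 were higher in the summed class. None of these 5 passed 1.5-fold when the sub-clusters of the class were weighted equally, and sub-cluster 4, in whose leading genes Ifi205 and Ifit1 stand, took 10.5% of the class in young PBS and 28.2% in old PBS. Of 42 members with at least 50 UMIs in the class, 16 were lower and 5 higher past 1.5-fold for age, against 6.35% and 7.73% of 14276 genes. The median log2 ratio was -0.38, compared with -0.03 over all genes. For treatment 6 were higher and 2 lower, against 4.46% and 5.66% of genes, with medians of 0.22 and 0.01. Old PBS was the lowest library for 29 of 42 members and the highest for 10, counts again given without the same counts over all genes. The members together took 9046 CPM in young PBS muscle, against 7268 in old PBS and 7791 with rMETRNL.

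The OAS genes differed most among the role groups of FAP-like cells (median log2 -0.72 for age and 0.50 for treatment). Oas1g was at 2.58 CPM in young PBS muscle, against 0.62 in old PBS and 1.38 with rMETRNL. Its age ratio of 0.24 (0.14 to 0.39) and treatment ratio of 2.23 (1.31 to 3.95) were the extremes of the members but rested on few UMIs. Oas1a was at 15.9, 6.92 and 11.3 CPM, giving ratios of 0.44 (0.37 to 0.51) and 1.63 (1.39 to 1.92). Oas3 was at 2.56, 1.96 and 3.49 CPM, giving ratios of 0.77 (0.55 to 1.06) and 1.78 (1.31 to 2.44). Oasl2, at 136, 86.3 and 98.6 CPM, had ratios of 0.64 (0.61 to 0.67) and 1.14 (1.09 to 1.20) and so stayed near the old PBS level after rMETRNL.

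Within the IFIT family of FAP-like cells the members parted. Ifit3 was at 158 CPM in young PBS muscle, against 92.0 in old PBS and 114 with rMETRNL, giving ratios of 0.58 (0.56 to 0.61) and 1.24 (1.18 to 1.3). Ifit1 was instead highest in old PBS, at 237, 282 and 190 CPM, giving ratios of 1.19 (1.16 to 1.23) and 0.67 (0.65 to 0.69). With equal weights for the 8 FAP-like sub-clusters that had at least 40 cells in each library, the age log2 ratio of Ifit1 was -0.18 and that of Ifit3 -0.99. The direction of Ifit1 in FAP-like cells therefore depended on how the sub-clusters were weighted.

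Isg15 was at 264 CPM in young PBS muscle, against 144 in old PBS and 219 with rMETRNL in FAP-like cells, giving ratios of 0.54 (0.53 to 0.56) and 1.52 (1.47 to 1.58). Usp18 followed at 40.1, 27.1 and 33.4 CPM (0.67, 0.62 to 0.73, and 1.23, 1.13 to 1.35). Bst2 was at 820, 395 and 579 CPM, giving ratios of 0.48 (0.47 to 0.49) and 1.47 (1.43 to 1.5), close to those of macrophages. Ifitm3 was at 3179, 2404 and 2854 CPM (0.76, 0.75 to 0.76, and 1.19, 1.18 to 1.20). Rsad2 was at 50.3, 59.1 and 58.9 CPM and did not follow the other effectors in these cells, giving ratios of 1.17 (1.104 to 1.2497) and 0.995 (0.94 to 1.06).

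Of the transcription factors in FAP-like cells, Irf7 was at 207 CPM in young PBS muscle, against 114 in old PBS and 163 with rMETRNL, giving ratios of 0.55 (0.53 to 0.57) and 1.43 (1.37 to 1.48). Stat2 (66.8, 53.5 and 55.6 CPM) and Irf9 (49.7, 41.1 and 39.0 CPM) stayed within 1.5-fold. Among the sensors Zbp1 was at 80.1, 42.6 and 60.8 CPM, giving ratios of 0.53 (0.50 to 0.57) and 1.43 (1.34 to 1.53). Ddx58 (71.3, 54.7 and 61.8 CPM) and Ifih1 (61.5, 53.9 and 57.0 CPM) had age ratios of 0.77 (0.72 to 0.82) and 0.88 (0.83 to 0.93).

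Of the other antiviral targets in FAP-like cells, Ifi44 was at 73.7 CPM in young PBS muscle, against 30.6 in old PBS and 49.8 with rMETRNL, giving ratios of 0.415 (0.385 to 0.446) and 1.63 (1.51 to 1.76). Ifi27l2a was at 1570, 948 and 1201 CPM (0.60, 0.60 to 0.61, and 1.27, 1.248 to 1.28). Xaf1 was at 101, 70.8 and 77.1 CPM, giving ratios of 0.70 (0.66 to 0.74) and 1.09 (1.03 to 1.15). Rtp4, at 123, 104 and 92.1 CPM, was lowest in old rMETRNL (0.85, 0.81 to 0.89, and 0.88, 0.84 to 0.93).

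The GTPases of FAP-like cells were divided. Their median log2 ratio was 0.59 for age, with 4 of 7 higher and 1 lower, and -0.40 for treatment, with 0 higher and 2 lower. With equal weights for sub-clusters none of the 4 was higher and neither of the 2 lower past 1.5-fold. Of all genes tested in the class, without such weights, 7.73% were higher and 6.35% lower for age. For treatment 4.46% were higher and 5.66% lower. Iigp1 was at 409 CPM in young PBS muscle, against 624 in old PBS and 426 with rMETRNL, giving ratios of 1.52 (1.49 to 1.56) and 0.68 (0.67 to 0.70). Irgm1 was at 115, 176 and 105 CPM (1.54, 1.48 to 1.6, and 0.60, 0.57 to 0.62), and Gbp2 at 104, 157 and 104 CPM (1.52, 1.46 to 1.58, and 0.66, 0.64 to 0.69). Gbp5, at 14.7, 22.2 and 16.8 CPM, was the remaining member that was higher, and Gbp3, at 71.0, 45.2 and 55.7 CPM, was the member that was lower. Igtp (53.0, 46.3 and 45.6 CPM) stayed within 1.5-fold. For Iigp1, Irgm1 and Gbp2 old PBS was highest, with young PBS and old rMETRNL near each other.

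Ifi205 had the highest age ratio of all members in FAP-like cells. It was at 243 CPM in young PBS muscle, against 458 in old PBS and 324 with rMETRNL, giving ratios of 1.89 (1.84 to 1.93) and 0.71 (0.69 to 0.72). The related Ifi204 was at 279, 346 and 301 CPM (1.24, 1.21 to 1.27, and 0.87, 0.85 to 0.89). Outside the module, the gamma-responsive factor Irf1 was at 141, 189 and 148 CPM and the chemokine Cxcl10 at 759, 1009 and 782 CPM, with age ratios of 1.34 (1.3 to 1.39) and 1.33 (1.31 to 1.35). The suppressor of cytokine signalling Socs1 was at 78.4, 112 and 88.5 CPM.

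The makeup of the FAP-like class differed between libraries. Sub-cluster 3, led by the heat shock genes Hspb1, Hspa1a and Hspa1b, took 16.3%, 7.26% and 18.6% of its cells. Of the 16 dissociation stress genes in the class, 1 was lower and 0 higher past 1.5-fold for age (median log2 0.01), and 1 was higher and 0 lower for treatment (-0.02), beside 6.35% of all genes lower for age and 4.46% higher for treatment. Hspa1a was at 1032, 614 and 1228 CPM in FAP-like cells. The part of this sub-cluster and of these genes in the FAP-like values was not tested. Sub-cluster 4, led by Mmp3, Il6, Fgl2 and by the members Ifi205 and Ifit1 themselves although neither was used for clustering, took 10.5% of FAP-like cells of young PBS muscle, but 28.2% in old PBS and 14.1% with rMETRNL. It held the GTPases at 1561, 1628 and 1709 CPM and the IFIT family at 897.6, 674.4 and 826.8 CPM, both above the class as a whole. Within this sub-cluster the core list was lower in old PBS than in young PBS (0.69, 0.67 to 0.70) and higher in old rMETRNL than in old PBS (1.39, 1.36 to 1.42). When the 8 sub-clusters were given equal weights, 0 members were higher past 1.5-fold for age and 0 lower for treatment, beside 6.3% and 5.06% of all genes under this weighting. The age log2 ratios were then 0.37 for Ifi205, 0.31 for Iigp1, 0.28 for Irgm1 and 0.06 for Gbp2. The count of members lower for age was 16 with equal weights as without them, and the median was -0.46.

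The antiviral part was seen in most FAP-like sub-clusters. The core list was lower in old PBS than in young PBS in 7 of 8 sub-clusters, with ratios from 0.38 in sub-cluster 1 (2330 CPM in young PBS muscle, against 888.6 in old PBS and 1517 with rMETRNL), and higher in old rMETRNL than in old PBS in 7 of 8, the exception being sub-cluster 0 (0.962, 0.926 to 0.999). Sub-cluster 8, left out because young PBS had 19 cells, had 97 old PBS and 54 rMETRNL cells, an age core ratio of 1.07 (0.96 to 1.19) and a treatment core ratio of 0.537 (0.486 to 0.593). Sub-cluster 10, left out with 14, 27 and 9 cells, had core ratios of 0.29 (0.25 to 0.35) and 1.61 (1.18 to 2.17). Sub-cluster 2, led by Pi16, Sema3c and Dpp4, differed from the rest with a core ratio of 1.11 (1.06 to 1.17) for age. In its cells the GTPases were at 556.2 CPM in young PBS muscle, against 999.6 in old PBS and 593.8 with rMETRNL.

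Counted per cell, FAP-like cells with at least 10 core UMIs of 2000 were 8.32% (7.03 to 9.76) of the young PBS, 5.54% (4.38 to 6.90) of the old PBS and 6.40% (5.28 to 7.69) of the rMETRNL cells. The ratio was 0.67 (0.50 to 0.89) for age, and that for treatment, 1.16 (0.85 to 1.57), could not be told from 1 at this number of cells. The age difference in FAP-like cells was not seen at higher cuts, where cells with at least 15 core UMIs were 2.55%, 2.51% and 2.21% and those with at least 20 were 0.91%, 0.89% and 0.72%. Markers of other classes in FAP-like cells were at 207, 241 and 252 CPM for macrophages, 31.7, 52.0 and 38.6 CPM for endothelium, 574, 387 and 404 CPM for pericytes and 554, 611 and 412 CPM for tenocytes. Myocyte markers were at 30, 204 and 54 CPM, and the part of these lists in the result was not tested. Against young PBS, FAP-like cells of old rMETRNL had a median member log2 ratio of -0.27, with 0 members higher and 1 lower, beside 3.86% and 4.5% of all genes.

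**Figure D5:**
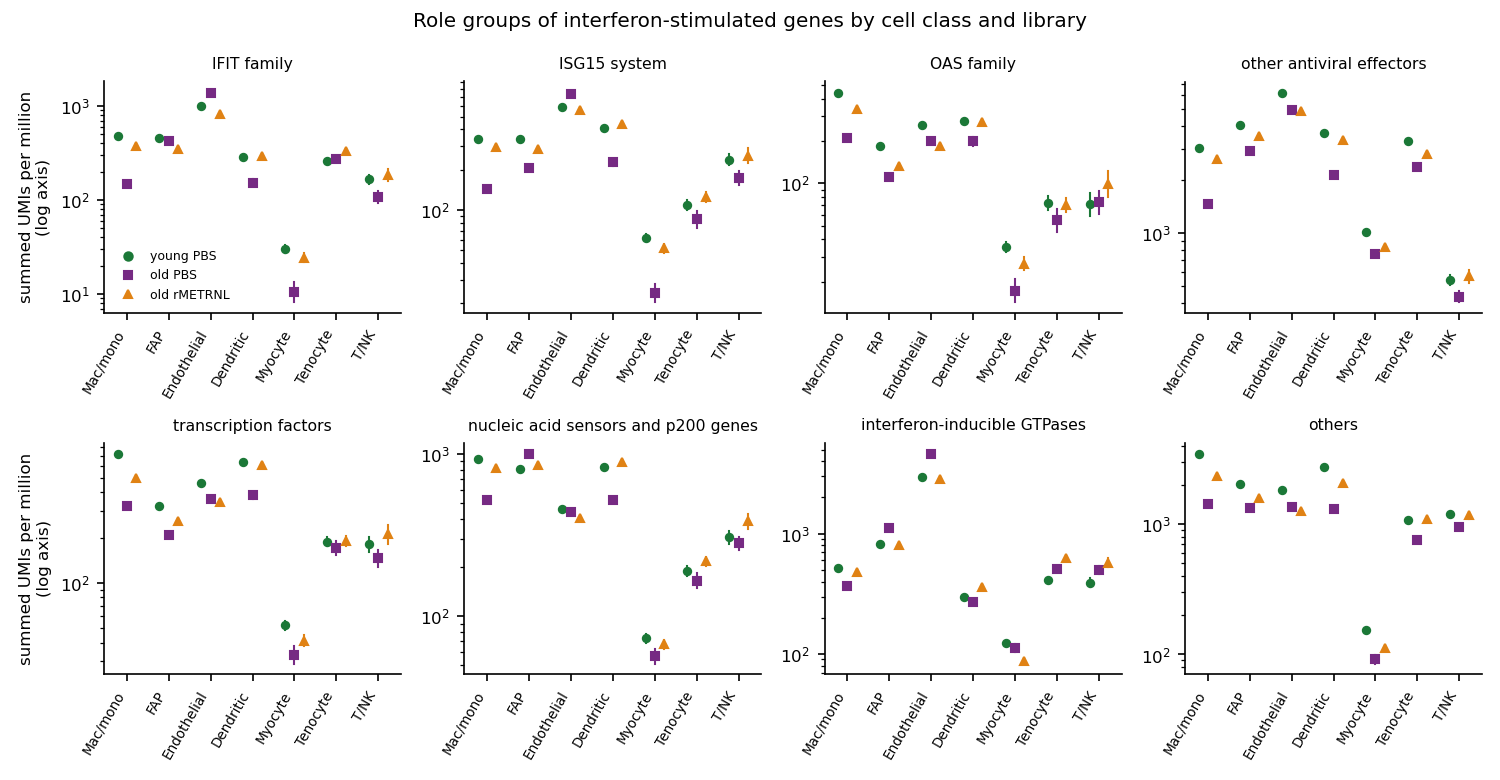
Summed level of each role group (CPM on a log axis, exact 95% Poisson intervals) in the 7 classes with at least 100 cells in every library. Endothelial-like cells hold the IFIT genes and the GTPases highest and myocyte-like cells the IFIT genes lowest, and old PBS (squares) lies below the other libraries for the IFIT genes of macrophage/monocyte-like and dendritic-like cells.

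Levels of the members also differed by cell class. Averaged over the libraries, 25 of the 43 members were highest in endothelial-like cells, 10 in macrophage/monocyte-like, 6 in dendritic-like and 2 (Ifi204 and Ifi205) in FAP-like cells. The macrophage-high members were all 6 OAS genes, Irf7, Ddx60, Dhx58 and Ifi27l2a. The highest class was not the same in every library for some members, among them Oas2, Oasl1, Oasl2, Irf7 and Ifi204. Myocyte-like cells were lowest for nearly all members. Ifitm3 was lowest in T/NK-like cells and Iigp1 in dendritic-like cells.

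Dendritic-like cells numbered 587, 362 and 650. Erythroid markers in them were at 173, 40 and 647 CPM and myocyte markers at 50, 198 and 104 CPM, and their part in the values was not tested. Of 43 members 26 were lower and 2 higher past 1.5-fold for age, against 8.02% and 6.35% of 9638 genes, with a median log2 ratio of -0.75. For treatment 30 were higher and 0 lower, against 6.52% and 5.09%, with a median of 0.71. Old PBS was lowest for 40 of 43 members (the same count over all genes is not given), and against young PBS the old rMETRNL median was 0.02. Ifi44 was at 32.9 CPM in young PBS muscle, against 8.06 in old PBS and 26.9 with rMETRNL, giving ratios of 0.25 (0.17 to 0.35) and 3.34 (2.31 to 4.96). Ifit3b was at 25.8, 8.77 and 23.0 CPM (0.34, 0.23 to 0.49, and 2.63, 1.83 to 3.87). The 2 members that were higher for age were the GTPases Gbp2 and Gbp5, named because they were so few. Cells with at least 10 core UMIs of 2000 made up 10.9%, 4.19% and 12.7%, with a ratio of 3.03 (1.73 to 5.66) for treatment.

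Endothelial-like cells (644, 925 and 977) had high levels and another pattern. The median log2 ratio was -0.01 for age (3 of 42 higher and 8 lower, against 9.8% and 8.36% of 11769 genes) and -0.25 for treatment (1 higher and 4 lower, against 6.34% and 6.6%). Ifit1 was at 523 CPM in young PBS muscle, against 900 in old PBS and 458 with rMETRNL, with a treatment ratio of 0.51 (0.49 to 0.53), and Iigp1 at 1632, 2911 and 1715 CPM, with a treatment ratio of 0.59 (0.58 to 0.60). Ifi27l2a went the other way with age, at 747, 272 and 361 CPM (0.364, 0.345 to 0.383), as did Ifit1bl1 at 8.06, 1.5 and 2.43 CPM (0.19, 0.09 to 0.36). The median depth per endothelial-like cell was 11248.5 UMIs in young PBS muscle, but 3914 in old PBS and 7239 with rMETRNL. The summed macrophage markers in them took 567, 1175 and 1033 CPM, pericyte markers 817, 1323 and 1043 CPM, myocyte markers 37.5, 309 and 80.2 CPM and erythroid markers 23.1, 176 and 40 CPM. The class joined a cluster led by Cldn5 and Gpihbp1 (489, 804 and 811 cells) and another led by Selp and Lrg1 (155, 121 and 166 cells), so that its makeup differed between libraries. The part of makeup, of depth and of these lists in the endothelial values was not tested.

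The smaller classes gave values with wider intervals. In myocyte-like cells (462, 211 and 436) 23 of 40 members were lower and 1 higher for age (4.45% and 6.55% of 11925 genes), and 14 were higher and 1 lower for treatment (3.31% and 5.59%), with medians of -0.70 and 0.33. Levels were low, and Ifit3 was at 8.16, 1.70 and 7.12 CPM with a treatment ratio of 4.20 (2.25 to 8.68). Ifit3b rested on 62, 2 and 41 UMIs. These are cells where the detected shares were smallest, and the part of free RNA was not tested. In tenocyte-like cells (193, 123 and 215) 8 of 37 were lower and 4 higher for age (7.76% and 9.31%), and 11 were higher and 0 lower for treatment (6.35% and 7.83%). Macrophage markers in tenocyte-like cells were at 830, 2473 and 1249 CPM, and their part was not tested. Ifi44 in these cells was at 25.8, 7.06 and 20.2 CPM, and Ifi47 was at 10, 5.18 and 19.7 CPM with a treatment ratio of 3.79 (2.01 to 7.91).

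In T/NK-like cells (208, 187 and 126) 5 of 35 members were lower and 4 higher for age (6.34% and 8.2% of 6780 genes), while 12 were higher and 0 lower for treatment (6.73% and 8.04%), with medians of -0.18 and 0.40. Mast cell markers in this class were at 1912, 174 and 350 CPM and myocyte markers at 73, 392 and 99 CPM, and their part was not tested. Iigp1 was at 27.3 CPM in young PBS muscle, against 62.4 in old PBS and 96.1 with rMETRNL, an age ratio of 2.29 (1.59 to 3.33). Rsad2 was at 46.0, 28.0 and 65.9 CPM, with a treatment ratio of 2.35 (1.57 to 3.56). Over all kept cells together, regardless of class, 26 of 43 members were lower and 0 higher for age (8.62% and 6.75% of 17348 genes) and 17 were higher and 0 lower for treatment (5.36% and 4.67%), with medians of -0.78 and 0.50.

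Set directly against young PBS, the other classes of old rMETRNL differed among themselves. Over all kept cells 0 of 43 members were higher and 1 lower past 1.5-fold, beside 3.84% and 4.13% of genes. In endothelial-like cells 1 of 42 was higher and 5 lower (4.13% and 2.67% of genes), and in dendritic-like cells 1 of 43 was higher and 0 lower (3.77% and 3.33%). In myocyte-like cells 2 of 40 were higher and 6 lower (2.68% and 3.72%). In tenocyte-like cells 8 of 37 were higher and 1 lower (5.68% and 4.73%), and in T/NK-like cells 6 of 35 were higher and 1 lower (7.45% and 6.39%). The GTPases Gbp2, Gbp5 and Iigp1 were among those that were higher in both of these last classes, with ratios of Gbp2 of 2.68 (2.16 to 3.34) in tenocyte-like and 2.0 (1.47 to 2.72) in T/NK-like cells.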

How the data were processed

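Single-cell RNA sequencing (10x droplets) was carried out on 3 libraries, 1 per group. The authors deposited raw UMI counts per gene and barcode, made with Cell Ranger (5.0.0 in the file headers; the submitters' processing notes list 5.0.0 and 3.1.0 with mm10, and the study's methods give another version, so that the version stays unsettled). Symbols were taken from the deposited feature list, and positions from GENCODE M21, in which 32158 of 32285 gene IDs were found. The filter kept barcodes holding 500 genes or more, with mitochondrial UMIs below 10%. Scrublet's automatic threshold called 1, 0 and 0 doublets, so the highest scores were removed instead, at 0.8% per 1000 barcodes (1154, 1164 and 1487 barcodes in the young PBS, the old PBS and the rMETRNL library). The libraries were clustered together on 2000 variable genes without the interferon genes (30 principal components, 20 neighbours, Leiden resolution 0.8). Clusters were named from marker lists, and the naming rule was revised after the cluster tables had been seen.

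UMIs were summed per class and library and divided by the class total (CPM). Ratios used genes with at least 50 UMIs in a class, with 0.5 added to each count for log2 ratios, and 1.5-fold was the size at which a gene was counted. No test between groups was made. The core list held 24 measured genes of 26 listed, and cells were thinned to 2000 UMIs for scores and detected shares. The genes named in the text were a fixed set covering each role, plus the members with the most extreme ratios in each contrast and class. The promoters printed were chosen after the values had been seen. The members and gene lists were chosen with earlier results of these data known. Total UMIs per library ranged from 179295668 to 228966697. Scripts were checked on simulated counts. Python 3.11.15, numpy 2.4.6, scipy 1.17.1, pandas 2.3.3, scanpy 1.11.5, anndata 0.12.19, igraph 0.11.9 and matplotlib 3.10.9 were used. Alternatives changed the cell filter, doublet removal, cluster resolution, gating, scaling, UMI minimum and fold.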

Additional observations from a re-analysis of the deposited data

Results flagged for a closer look

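Ifi205 differed in direction between the classes with age. Its log2 ratio of old PBS over young PBS was -0.70 in macrophage/monocyte-like cells (ratio 0.61) and 0.91 in FAP-like cells (ratio 1.89), a difference of 1.62. With equal weights for the FAP-like sub-clusters the FAP-like log2 ratio of Ifi205 was 0.37, and sub-cluster 4, which Ifi205 itself helps to lead, took 10.5% of FAP-like cells in young PBS and 28.2% in old PBS. With 1 library per group this difference was not tested.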

How the results depend on the processing

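The medians kept their sign under every alternative run. For macrophage/monocyte-like cells they ranged from -1.13 to -0.88 for age and from 0.68 to 0.76 for treatment, and for FAP-like cells from -0.46 to -0.33 and from 0.19 to 0.26. Shares of all genes past the same fold, in the same direction and under the same alternative, stand in parentheses after each count. The macrophage count of 32 members higher with treatment (5.69%) became 8 at 2-fold (1.56%). In FAP-like cells the 5 members of 42 higher with age (7.73%) became 1 at Leiden resolution 1.6 (6.78%), 1 with classes from a gate on single genes (6.73%), 3 with the mean of per-cell CPM (9.49%) and 0 at 2-fold (2.7%). The 16 lower with age (6.35%) became 25 at the smaller fold tried (18.1%) and 5 at 2-fold (2.04%), and the 6 higher with treatment (4.46%) became 12 (12.8%) and 1 (1.27%). The 2 lower with treatment (5.66%) became 1 with the filter of 200 genes and 20% mitochondrial UMIs (5.6%), with doublet calls kept (5.41%), at resolution 1.6 (4.63%), with the gate (4.87%) and with the mean of per-cell CPM (6.93%), 7 at the smaller fold (14.3%) and 0 at 2-fold (1.74%). Equal weights for sub-clusters, an alternative chosen after seeing the data, gave 0 for the FAP-like members higher with age (6.3%) and 0 for those lower with treatment (5.06%). The causes were not tested. A count is given here when it differed from the reported one by more than 1.5 times. For single named genes, 234 log2 ratios lay outside the exact 95% interval of the reported ratio, which covers counting error only, and 776 lay within it. All 30 shares of cells with at least 10 core UMIs lay outside the exact 95% interval of the reported share when the UMI cut or the thinning was changed, which is a change of definition. Their order over the libraries held in macrophage/monocyte-like cells, whereas in FAP-like cells old rMETRNL was lowest with a cut of 20 UMIs and with thinning to 1000 UMIs. In FAP-like cells young PBS and old PBS then stood at 0.91% and 0.89% with that cut and at 1.39% and 1.16% with that thinning, with intervals that overlapped. No paired analysis was possible because each group had 1 library. Depth limits the low OAS genes of FAP-like cells and the classes of fewer cells, and the spread between mice is unknown in all results.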

Other observations

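Classes with fewer than 100 cells in a library were left out of the report's comparisons and are given as values. In pericyte/smooth muscle-like cells (84 young PBS, 104 old PBS and 78 rMETRNL cells) Ifit1 was at 411, 888 and 118 CPM and Ifit3 at 204, 568 and 122 CPM. Of 29 members 12 were higher and 2 lower past 1.5-fold for age, against 12.9% and 16.2% of genes, and 0 were higher and 23 lower for treatment, against 12.7% and 9.36%. The order of the libraries was thus unlike that of macrophage/monocyte-like cells, without a test of the difference. In plasmacytoid dendritic-like cells (36, 11 and 32) the median log2 ratio of 17 members was -0.43 for age and -0.10 for treatment, and in Schwann-like cells (16, 67 and 43) that of 10 members was -1.09 and 0.78. A cluster led by myofibre genes (34, 433 and 129 cells) had 4 members with enough UMIs, at median log2 ratios of 0.02 and -0.01.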
